A study of Homo sapiens with 13 samples.

Results

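The genes described here are 31 genes of cholesterol and fatty acid synthesis, all of a kind known to be driven by sterol regulatory element binding proteins (SREBPs). They were chosen by name from the 61541 human genes in the count tables, and all 31 were found once by symbol and Ensembl identifier. Their RNA was followed by bulk RNA sequencing in RUES2, a human embryonic stem cell line in which SMAD4 carries a GFP tag (GFP::SMAD4 fusion), so that every library has this allele. The time series held 7 libraries of cells given 100 ng/mL BMP4, 5 µM IWP2, which blocks Wnt secretion, and ROCK inhibitor (RI): 2 at 0 h and 1 each at 4, 12, 20, 28 and 42 h. The 0 h libraries carry the same treatment label and were read as cells collected when treatment started. The dose response held 6 libraries at 5 h: 5 with the same BMP4, IWP2 and RI plus LDN-193189 (LDN), which inhibits BMP receptors, at 0, 10, 30, 100 or 300 nM, and 1 labelled mTeSR, the maintenance medium, called untreated below. Only 0 h had a second library, and nothing in the labels says that the pair came from separate cultures. The p-values for each time against 0 h rest on the spread of that pair, shared across genes. A gene's own pair therefore hardly enters them. The p-values for trends and for the untreated library rest on scatter about a fitted line, which includes any departure from the line. In each case the spread between libraries may be technical.

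SREBPs are transcription factors held in the membrane of the endoplasmic reticulum. When sterols are scarce, SCAP escorts them to the Golgi, where proteases release the active part, and INSIG proteins hold SCAP back when sterols are plentiful. SREBP-2, from SREBF2, chiefly drives the genes that build cholesterol from acetyl-CoA through mevalonate, squalene and lanosterol, whereas SREBP-1, from SREBF1, chiefly drives fatty acid synthesis. SREBF2 and INSIG1 are themselves targets of the pathway.

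Library totals were 37956244 to 71331540 counts in the time series and 15600645 to 33989489 in the dose response, the untreated library being the shallowest. Levels are given as CPM, counts relative to the library's total, scaled by TMM factors that adjust for differences in library composition. Mitochondrial genes took 7.60% of the counts in 0 h replicate 1 and 4.29% in replicate 2, and 7.89% in the untreated library against 4.22% to 4.49% in the libraries with BMP4, so both of these libraries stood apart. The cells answered to their labels: the summed level of 8 BMP target genes was 140 and 163 CPM at 0 h and 2033 CPM at 4 h, and it was 2333 CPM at 0 nM and 702 CPM at 300 nM LDN. Pluripotency markers (7 genes) summed to 5843 and 6329 CPM at 0 h and 3472 CPM at 42 h, and 9 amnion-like markers summed to 26.0 and 29.4 CPM at 0 h and 7515 CPM at 42 h. The pluripotency sum understates the fall of most of its genes. Of the 7, 5 were lower at 42 h and 0 higher, against 17.2% and 19.8% of all genes, with a median change of -4.83 log2. The 7 primitive streak and endoderm markers summed to 2.74 to 5.99 CPM over the time series, but single markers moved in opposite directions within this low sum. In raw counts FOXA2 went from 121 and 208 at 0 h to 7 at 4 h. EOMES went from 8 and 22 at 0 h to 213 at 20 h, and SOX17 from 3 and 4 at 0 h to 88 at 28 h. These are bulk samples, in which a change in the share of cells and a change in RNA per cell cannot be told apart.

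Upstream sequence was described as a trait of the list. The members were chosen by name as genes driven by SREBPs, so these shares do not bear on why their levels moved. RefSeq start sites on GRCh38.p14 gave windows of 250 bases before to 50 after the start for 27 of the 31 genes, all but ACAT2, FDFT1, SQLE and FASN. Letters were searched on both strands, and no matches of different motifs overlapped in the members' windows. CCAAT, the letters bound by NF-Y, a usual partner of SREBPs, lay in the windows of 21 members (77.8%), against 43.5% of the genes tested in the time series. GGGCGG, the GC box, lay in 26 members (96.3%) against 78.3%. CACGTG, the E-box, lay in 3 members (11.1%) against 12.6%, and TCACNCCAC, the core of a sterol regulatory element, in 1 member, SREBF2 (3.7%), against 1.45%. A match describes letters only, and other spellings of these elements were not searched. The stretch before SREBF2 is shown for its sterol element, and those before SC5D and MVK because these genes fell among the most with LDN. STARD4 fell the most but is not shown. Stretches were ended before any annotated untranslated region, which left that of STARD4 too short. Capitals mark the matches to these motifs on either strand (ATTGG is CCAAT and CCGCCC is GGGCGG read on the other strand).
SREBF2, chr22:41832972-41833104, plus strand: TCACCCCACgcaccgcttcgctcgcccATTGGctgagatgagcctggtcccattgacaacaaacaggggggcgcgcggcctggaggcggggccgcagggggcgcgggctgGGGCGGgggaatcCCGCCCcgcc
SC5D, chr11:121292661-121292770, plus strand: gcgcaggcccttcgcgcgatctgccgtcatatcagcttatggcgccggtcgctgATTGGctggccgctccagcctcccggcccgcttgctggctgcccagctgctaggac
MVK, chr12:109573684-109573792, plus strand: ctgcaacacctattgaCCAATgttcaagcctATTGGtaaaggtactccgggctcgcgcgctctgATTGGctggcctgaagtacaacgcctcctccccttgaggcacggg
The SREBF2 stretch runs from base -133 to base -1 before the start site and lies in an exon of the antisense gene SREBF2-AS1 in GENCODE release 44. The SC5D stretch ends at base -1, and 90 of its bases lie in a first exon of a noncoding SC5D transcript. The MVK stretch ends at base -2 and lies within the annotated MVK gene but in none of its exons. The MVK stretch holds 3 CCAAT matches and the SC5D and SREBF2 stretches 1 each.

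The time series asked how transcript levels moved from the pluripotent state over 42 h of BMP4. The members rose together: 18 of 31 rose along a line in hours, 0 fell, and 27 had a positive slope (edgeR's quasi-likelihood test, Benjamini-Hochberg adjusted p under 0.05 over 13658 genes). Of all genes tested, 19.6% rose and 17.9% fell by this test. An unadjusted p under 0.05 was found for 19 members and for 6596 of the 13658 genes. The median member changed by 0.71 on the log2 scale over the 42 h of the fitted line, against 0.01 for all genes tested. By role, 2 of 3 regulators, 3 of 7 mevalonate and isoprenoid genes, 7 of 11 squalene and sterol genes, the sterol carrier STARD4 and 5 of 9 fatty acid and glycerolipid genes rose. The count depended on single libraries: it was 6 without the 42 h library, when 12.6% of all genes rose, and 11 without 0 h replicate 1. It was 8 on library totals, a scaling that shifts the median gene by -0.20 (log2) at 42 h and under which 14.1% of all genes rose and 25.8% fell. SREBF2, TM7SF2, MSMO1, ACLY and ACSS2 rose under all 15 alternatives.

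With time as a factor, each later library was set against 0 h. At 4 h no member was higher and 1, LPIN1, was lower, against 4.14% and 0.534% of all genes. At 12 h 2 members, INSIG1 and MVK, were higher and LPIN1 was lower (background 6.91% and 2.39%). At 20 h 1, TM7SF2, was higher and LPIN1 was lower (12.4% and 5.70%). At 28 h 6 were higher and 0 lower (13.3% and 6.48%), and at 42 h 14 were higher and 0 lower (19.8% and 17.2%). The 14 were 9 on library totals, when 15.4% of all genes were higher, and 8 by limma on FPKM, when 13.7% were. At an unadjusted p under 0.05 the same contrasts gave 3, 7, 5, 9 and 16 members in either direction. Of all 13658 genes they gave 1420, 2162, 3859, 3862 and 6055. Up to 20 h the share of members called higher was below that of all genes, and it was above it at 28 h (19.4%) and 42 h (45.2%). On the log2 scale the median member differed from 0 h by 0.01, 0.35, 0.27, 0.47 and 0.72 at these times in order, while the median of all genes stayed between -0.01 and 0.01. Members above 0 h, called or not, numbered 17, 27, 24, 28 and 27 of 31. These contrasts share the 0 h libraries and take the spread of the later libraries from that pair, shared across genes. The pair itself differed by over 0.5 log2 for 7 members, PMVK, MVK, MVD, FDPS, NSDHL, EBP and ACAT2, all higher in replicate 2, where EBP stood at 71.1 and 150 CPM. The SE at 42 h was nevertheless 0.32 for EBP and 0.34 for SREBF2, whose pair differed by 0.05 log2.

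**Figure D1:**
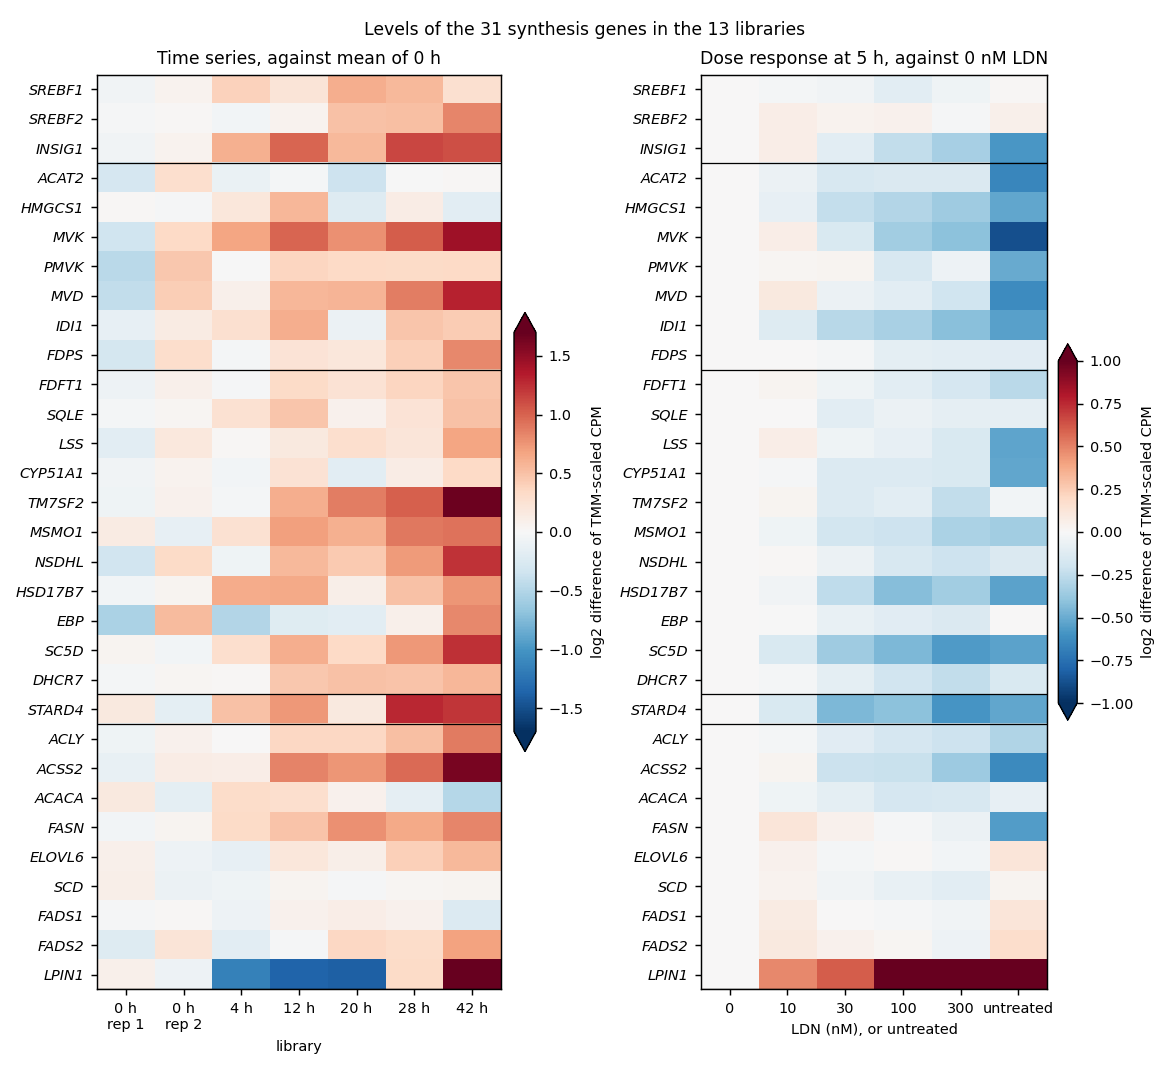
Levels of the 31 genes in each of the 13 libraries, by role from regulators (top) to fatty acid and glycerolipid genes (bottom). Colour is the log2 difference of TMM-scaled CPM, on the left from the mean of the 0 h libraries and on the right from the library with BMP4 and 0 nM LDN. Most rows turn red towards 42 h and blue towards 300 nM LDN, and the LPIN1 row differs from them in both panels.

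Among the regulators, SREBF2 and INSIG1 rose and SREBF1 did not pass the test. SREBF2 (chr22:41833105-41907306) had 461 and 477 CPM in the 0 h libraries, then 453, 490, 660, 668 and 834 CPM at 4, 12, 20, 28 and 42 h, the order kept below for the later libraries. Its libraries from 20 h on all lay above those up to 12 h, and it rose by 0.88 ± 0.15 log2 (SE) over 42 h (edgeR's quasi-likelihood test, adjusted p = 0.00314). INSIG1 (chr7:155297776-155310235), the sterol-sensing retention factor, had 131 and 144 CPM at 0 h, then 209, 273, 202, 300 and 293 CPM. Every later library was above both 0 h libraries, with a dip at 20 h. INSIG1 rose over time by 1.01 ± 0.31 (adjusted p = 0.0352) and was 0.99 ± 0.32 higher than 0 h already at 12 h (adjusted p = 0.0266, edgeR's quasi-likelihood test). SREBF1 (chr17:17810399-17837002) had 104 and 112 CPM at 0 h, then 141, 126, 166, 159 and 131 CPM from 4 to 42 h. It was highest at 20 h and its slope of 0.36 ± 0.24 missed the threshold (edgeR, adjusted p = 0.267).

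The early, mevalonate part of the pathway was divided. MVK, mevalonate kinase, had 38.1 and 61.6 CPM at 0 h, then 77.1, 96.5, 83.1, 98.9 and 131 CPM. MVD, the decarboxylase that makes isopentenyl diphosphate, had 215 and 381 CPM at 0 h, then 305, 423, 429, 524 and 712 CPM. FDPS, which builds farnesyl diphosphate, had 167 and 254 CPM at 0 h, then 202, 242, 235, 272 and 364 CPM. In all of them 42 h was the highest library and the 0 h libraries were far apart. Over 42 h MVK rose by 1.19 ± 0.31 (edgeR's quasi-likelihood test, adjusted p = 0.0195), MVD by 1.25 ± 0.26 (adjusted p = 0.00733) and FDPS by 0.75 ± 0.22 (adjusted p = 0.0272). At 42 h against 0 h, MVK was 1.40 ± 0.32 higher (adjusted p = 5.7e-05, edgeR) and MVD 1.26 ± 0.33 (adjusted p = 0.000734).
The other 4 mevalonate genes did not pass the time trend. HMGCS1, which condenses acetyl-CoA units into HMG-CoA, had 702 and 685 CPM at 0 h, then 794, 1027, 596, 755 and 615 CPM. It was highest at 12 h and below 0 h at 20 and 42 h, and its change at 42 h of -0.17 ± 0.36 was the third lowest among the members (edgeR, adjusted p = 0.744). ACAT2, PMVK and IDI1 changed over 42 h by -0.02 to 0.33, with adjusted p from 0.369 to 0.956 in edgeR's test. PMVK, phosphomevalonate kinase, had the lowest level per length of the sterol genes at 0 h, a mean of 16.9 FPKM, and ranged from 8.24 to 15.8 CPM over the time series. ACAT2 shares 17.2% of its exon bases with TCP1 on the other strand, which reached 263 CPM in the time series, and whether the counting used strand is not given in the sources used here.

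Of the 11 squalene and sterol genes, all had a positive slope in hours. TM7SF2, a sterol reductase acting after lanosterol, had 97.5 and 107 CPM at 0 h, then 99.8, 157, 187, 207 and 326 CPM. From 12 h on each library was above the one before it, and the rise of 1.69 ± 0.16 over 42 h was the steepest called among the members (edgeR's quasi-likelihood test, adjusted p = 0.000224). SC5D, lathosterol oxidase, had 202 and 191 CPM at 0 h, then 238, 301, 248, 326 and 463 CPM. MSMO1, which oxidises methylsterols, had 183 and 151 CPM at 0 h, then 198, 270, 251, 309 and 315 CPM. NSDHL, the dehydrogenase of the same demethylation, had 36.9 and 58.4 CPM at 0 h, then 44.01, 68.3, 63.5, 76.8 and 109 CPM. SC5D and MSMO1 were above both 0 h libraries at every later time, whereas NSDHL at 4 h lay between them. SC5D rose by 1.10 ± 0.19 (edgeR, adjusted p = 0.00359), NSDHL by 1.19 ± 0.24 (adjusted p = 0.00673) and MSMO1 by 0.95 ± 0.22 (adjusted p = 0.0115).
Smaller rises were seen in abundant genes of this group. LSS, lanosterol synthase, had 589 and 757 CPM at 0 h, then 677, 752, 812, 768 and 1060 CPM. DHCR7, a reductase at the end of the pathway, had 338 and 356 CPM at 0 h, then 352, 475, 489, 486 and 510 CPM. FDFT1, squalene synthase, had 513 and 577 CPM at 0 h, then 538, 684, 646, 703 and 752 CPM. For LSS the libraries up to 12 h overlapped those at 0 h, and for DHCR7 and FDFT1 all libraries from 12 h on lay above 0 h. DHCR7 rose by 0.62 ± 0.18 (edgeR's quasi-likelihood test, adjusted p = 0.0294), LSS by 0.59 ± 0.17 (adjusted p = 0.0299) and FDFT1 by 0.49 ± 0.16 (adjusted p = 0.0395), and all of these calls were lost in one or more fits that left out a library. SQLE, CYP51A1, HSD17B7 and EBP changed by 0.28 to 0.71 over 42 h without passing the trend test (adjusted p 0.186 to 0.276, edgeR). HSD17B7, a ketosteroid reductase, was higher at 42 h than at 0 h by 0.75 ± 0.31 (edgeR, adjusted p = 0.0421). CYP51A1, lanosterol demethylase, shares 67.8% of its exon bases with a gene model on the same strand that reached 7.36 CPM, so part of its reads cannot be assigned.

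STARD4, a carrier of cholesterol within cells, had 88.1 and 69.6 CPM at 0 h, then 111, 130, 87.7, 190 and 182 CPM. The 20 h library fell back into the range of 0 h and the libraries at 28 and 42 h were the highest. Its rise over 42 h was 1.19 ± 0.32 (edgeR's quasi-likelihood test, adjusted p = 0.0220), and it was 1.27 ± 0.32 higher than 0 h at 28 h (adjusted p = 0.000543).

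**Figure D2:**
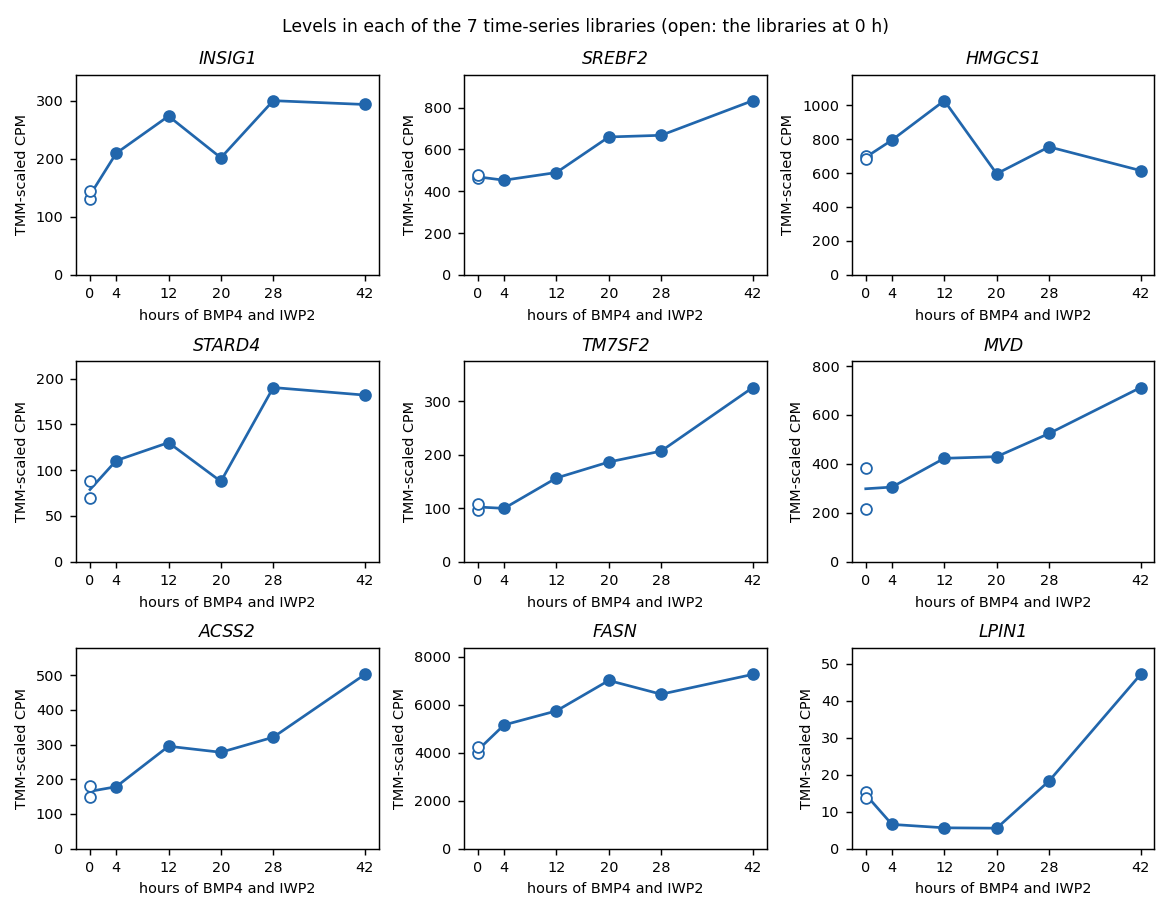
TMM-scaled CPM (vertical axes, from 0) against hours of BMP4 and IWP2 for 9 of the genes, 1 point per library, with open circles for the libraries at 0 h and the line through their mean. TM7SF2, ACSS2 and SREBF2 are highest at 42 h, INSIG1, STARD4 and HMGCS1 dip at 20 h, and LPIN1 is lowest from 4 to 20 h.

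Of the fatty acid genes, those that supply acetyl-CoA rose with FASN, ELOVL6 and FADS2, and ACACA, SCD and FADS1 did not pass the test. ACSS2, which makes acetyl-CoA from acetate, had 150 and 180 CPM at 0 h, then 178, 295, 278, 321 and 502 CPM. ACLY, which makes cytosolic acetyl-CoA from citrate, had 1276 and 1401 CPM at 0 h, then 1340, 1708, 1712, 1907 and 2457 CPM. FASN, fatty acid synthase, had 3975 and 4241 CPM at 0 h, then 5157, 5744, 7013, 6440 and 7267 CPM. For ACSS2 and ACLY the libraries from 12 h on lay above 0 h, and for FASN all later libraries did. ACSS2 rose by 1.54 ± 0.21 over 42 h (edgeR's quasi-likelihood test, adjusted p = 0.0011), ACLY by 0.86 ± 0.14 (adjusted p = 0.00258) and FASN by 0.81 ± 0.19 (adjusted p = 0.0124). ELOVL6, an elongase, rose by 0.60 ± 0.16 (adjusted p = 0.0203, edgeR) and FADS2, a desaturase of polyunsaturated fatty acids, by 0.71 ± 0.20 (adjusted p = 0.0236).
ACACA, acetyl-CoA carboxylase, the committed step of fatty acid synthesis, had 378 and 300 CPM at 0 h, then 417, 410, 354, 304 and 240 CPM. It was highest at 4 h and only its 42 h library was below both 0 h libraries, with a change at 42 h of -0.50 ± 0.35 (edgeR, adjusted p = 0.271). Its slope of -0.55 ± 0.24 missed the threshold (edgeR, adjusted p = 0.109) and passed it without 0 h replicate 2 (adjusted p = 0.0113) and by limma on FPKM (adjusted p = 0.0391). FADS1 had 288 and 294 CPM at 0 h, then 275, 305, 314, 307 and 248 CPM, and SCD, stearoyl-CoA desaturase, stayed between 2697 and 3085 CPM in all 7 libraries. Neither changed detectably: -0.10 ± 0.17 for FADS1 and 0.07 ± 0.13 for SCD over 42 h, adjusted p = 0.658 and 0.724 in edgeR's quasi-likelihood test.

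LPIN1 fell first and rose later. It encodes lipin-1, the phosphatidate phosphatase that makes diacylglycerol for triglyceride and phospholipid synthesis. Its level was 15.4 and 13.7 CPM at 0 h, then 6.53, 5.60, 5.51, 18.3 and 47.1 CPM. The 3 libraries from 4 to 20 h were below both 0 h libraries and those at 28 and 42 h above them. Against 0 h it changed by -1.16 ± 0.33 at 4 h (edgeR's quasi-likelihood test, adjusted p = 0.014), at 12 h by -1.38 ± 0.34 (adjusted p = 0.000886) and at 20 h by -1.40 ± 0.34 (adjusted p = 0.000368), and at 42 h by 1.69 ± 0.30 (adjusted p = 1.35e-07). A line could not describe this course, and its slope of 1.69 ± 0.70 missed the threshold (edgeR, adjusted p = 0.0894). Per length, LPIN1 was also the least abundant member, at a mean of 4.31 FPKM over the 0 h libraries and 11.2 FPKM at 42 h, whereas SCD had 593, FASN 591 and ACLY 567 FPKM at 0 h.

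The 20 h library was low for many members, a pattern noticed after their values were seen. In 18 of 31 members 20 h lay below both 12 h and 28 h, as it did in 29.3% of all genes tested. In 8 members, INSIG1, ACAT2, HMGCS1, IDI1, CYP51A1, HSD17B7, SC5D and STARD4, it lay below both by more than 0.25 log2, as it did in 5.95% of all genes. From 12 h to 20 h HMGCS1 changed by -0.79 log2, IDI1 by -0.72 and STARD4 by -0.57, and from 20 h to 28 h STARD4 changed by 1.12. SREBF1, SREBF2 and FASN instead had higher levels at 20 h than at 12 h. Each of these times is 1 library, so the dip has no replicate check, and the share of mitochondrial counts in them was 3.65%, 2.73% and 3.11% in order of time.

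The dose response asked how levels at 5 h depend on the strength of BMP signaling, lowered step by step with LDN. Most members fell with LDN: 22 of 31 fell along the 4 dose steps, 1 rose, and 30 had a negative slope (edgeR's quasi-likelihood test, adjusted p under 0.05 over 13010 genes). Of all genes tested, 11.6% fell and 11.3% rose. The median member changed by -0.046 log2 per step, against -0.001 for all genes, so that the shifts were common but small, from -0.145 to -0.031 per step among those that fell. By role, 6 of 7 mevalonate genes, 10 of 11 squalene and sterol genes, STARD4, 4 of 9 fatty acid and glycerolipid genes and 1 of 3 regulators fell. The count was 14 without the 300 nM library, when 8.25% of all genes fell, and 14 by limma on FPKM. In 27 of 31 members the libraries at 0 and 10 nM were both above those at 100 and 300 nM, as in 29.0% of all genes, with SREBF2, ELOVL6, FADS2 and LPIN1 as the exceptions. Over the same libraries the summed BMP target genes went from 2333 to 702 CPM, the amnion-like markers from 275 to 36.5 CPM and the pluripotency markers from 5648 to 5909 CPM, and their part in the members' values was not tested. Within the last sum, 4 of the 7 pluripotency markers rose with LDN and 0 fell.

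**Figure D3:**
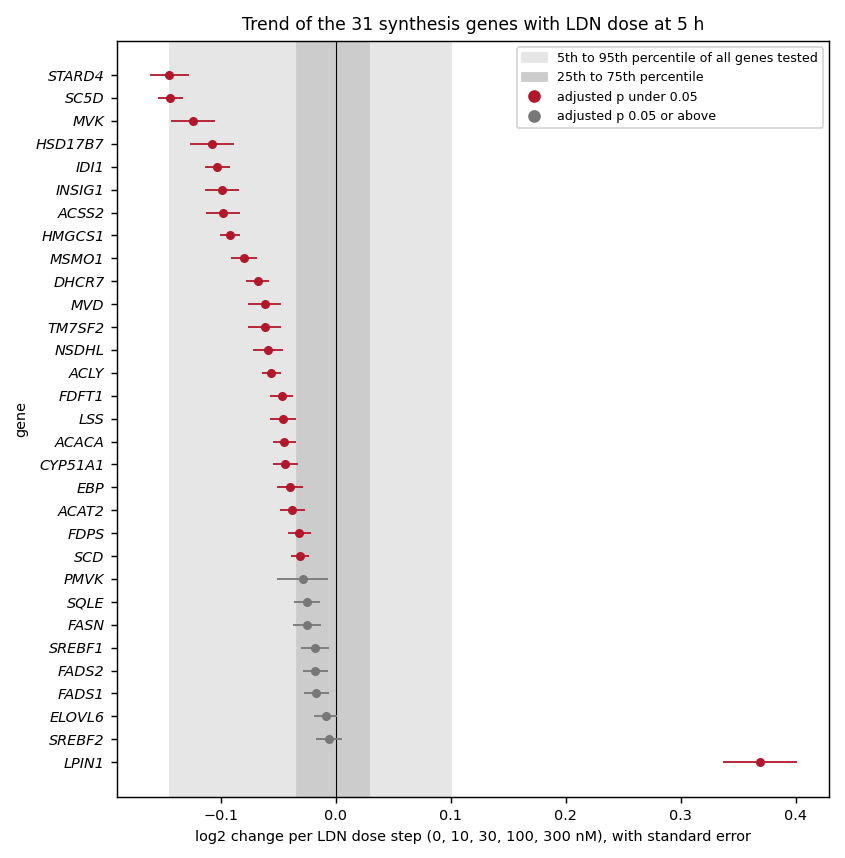
Change in log2 level per LDN dose step for each gene (points) with its standard error (bars), in red where the adjusted p was under 0.05. Grey bands give the percentiles of all 13010 genes tested: 30 of 31 points lie left of 0, STARD4 and SC5D at the 5th percentile of all genes, and LPIN1 far to the right.

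The steepest falls were in sterol genes. STARD4 had 101 CPM at 0 nM, 91.0 at 10 nM, 74.1 at 30 nM, 75.9 at 100 nM and 67.3 CPM at 300 nM LDN. SC5D had 251, 226, 196, 184 and 170 CPM at the same doses, and MVK 60.8, 63.5, 54.7, 47.8 and 45.7 CPM. In each of them the libraries at 30 nM and above were below both lower doses, and SC5D was lower at every higher dose. The slopes were -0.145 ± 0.017 for STARD4 (edgeR's quasi-likelihood test, adjusted p = 5.43e-05), -0.144 ± 0.011 for SC5D (adjusted p = 1.45e-06) and -0.124 ± 0.019 for MVK (adjusted p = 0.000378). HSD17B7 (-0.108 ± 0.019), IDI1 (-0.103 ± 0.011) and HMGCS1 (-0.092 ± 0.009) followed, each called by edgeR. HMGCS1 had 1222 CPM at 0 nM and 954 CPM at 300 nM LDN, and IDI1, isopentenyl diphosphate isomerase, 288 and 216 CPM.

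**Figure D4:**
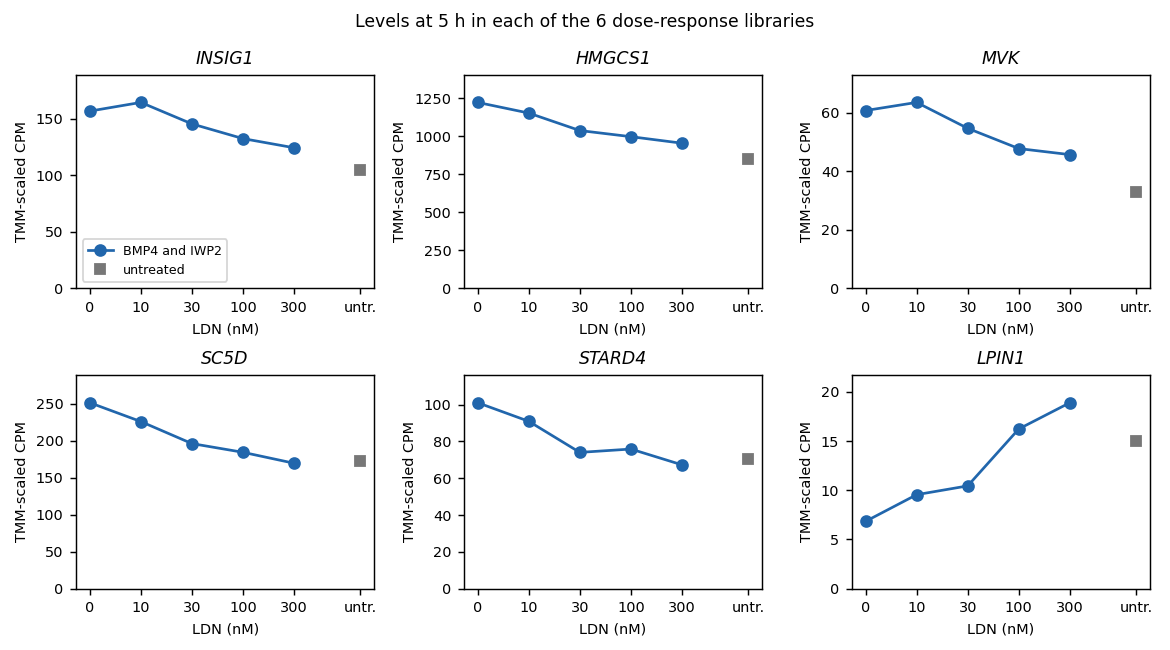
TMM-scaled CPM (vertical axes, from 0) of 6 genes at 5 h in the libraries with BMP4, IWP2 and 0 to 300 nM LDN (blue) and in the untreated library (grey square). INSIG1, HMGCS1, MVK, SC5D and STARD4 are lower at 100 and 300 nM than at 0 nM, and LPIN1 is higher.

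Of the regulators, INSIG1 had 157 CPM at 0 nM, 164 at 10 nM, 145 at 30 nM, 132 at 100 nM and 124 CPM at 300 nM LDN. It fell by 0.099 ± 0.015 log2 per step (edgeR's quasi-likelihood test, adjusted p = 0.000469). The genes of the SREBPs themselves showed no detectable trend. SREBF2 had 375, 393, 385, 386 and 371 CPM and a slope of -0.006 ± 0.011 (edgeR, adjusted p = 0.740). SREBF1 had 95.4, 93.9, 92.9, 88.5 and 92.4 CPM and a slope of -0.018 ± 0.012 (adjusted p = 0.324). SREBF2 at 0 and 10 nM overlapped the higher doses, whereas SREBF1 at 0 and 10 nM lay narrowly above them.

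Other genes called in both trends had smaller slopes. MVD had 314, 337, 302, 292 and 274 CPM from 0 to 300 nM LDN and FDPS 373, 374, 368, 349 and 346 CPM. FDFT1 had 703, 716, 681, 652 and 626 CPM, and LSS 587, 614, 569, 555 and 526 CPM. In these 4 genes 10 nM was the highest library and 300 nM the lowest, with slopes from -0.062 to -0.032 (edgeR's quasi-likelihood test, adjusted p 0.00384 to 0.0322). TM7SF2 had 103, 105, 93.8, 95.5 and 87.0 CPM, and NSDHL 71.3, 71.9, 68.5, 63.8 and 61.8 CPM. MSMO1 had 228, 221, 201, 197 and 183 CPM, and DHCR7 370, 366, 345, 323 and 311 CPM, both lower at each higher dose. MSMO1 changed by -0.080 ± 0.011 per step (edgeR, adjusted p = 0.000141) and DHCR7 by -0.068 ± 0.010 (adjusted p = 0.000304). ACAT2, CYP51A1 and EBP also fell, by slopes of -0.044 to -0.038, while PMVK (-0.029 ± 0.022) and SQLE (-0.025 ± 0.011) did not pass the test (edgeR, adjusted p = 0.398 and 0.122). ACAT2 shares exon bases with TCP1, which reached 332 CPM in the dose response.

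Among the fatty acid genes, the acetyl-CoA suppliers fell and the desaturases of polyunsaturated fatty acids did not pass the test. ACSS2 had 176, 179, 152, 151 and 137 CPM from 0 to 300 nM LDN and ACLY 1120, 1107, 1037, 999 and 972 CPM. Both were below their 0 nM level at 30 nM and above, with slopes of -0.098 ± 0.015 (edgeR's quasi-likelihood test, adjusted p = 0.000365) and -0.056 ± 0.008 (adjusted p = 0.000369). ACACA (-0.045 ± 0.010, adjusted p = 0.00619) and SCD (-0.031 ± 0.008, adjusted p = 0.0138) fell slightly by the same edgeR test. FASN, ELOVL6, FADS1 and FADS2 had slopes from -0.025 to -0.009, adjusted p 0.157 to 0.582. LPIN1 rose, from 6.83 CPM at 0 nM through 9.55 at 10 nM, 10.4 at 30 nM and 16.2 at 100 nM to 18.9 CPM at 300 nM LDN. It was higher at every higher dose, by 0.369 ± 0.032 log2 per step (edgeR, adjusted p = 3.9e-06), the 1 member with a positive slope.

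The untreated library gave the level at 5 h without BMP4, IWP2 or LDN. Against it, the fitted level with BMP4 and IWP2 and no LDN was higher in 20 of 31 members and lower in 1, LPIN1 (edgeR's quasi-likelihood test, adjusted p under 0.05). Of all genes, 25.3% were higher and 23.4% lower, so that 48.7% were called against this 1 library, which was the shallowest and had the high mitochondrial share. It also lacked IWP2, and its label names no RI, so those and BMP4 cannot be told apart. All 7 mevalonate genes, 8 of 11 squalene and sterol genes, STARD4, INSIG1 and, of the fatty acid genes, ACLY, ACSS2 and FASN were higher. MVK had 33.0 CPM untreated, 0.96 ± 0.09 log2 below the fitted level with BMP4 (edgeR, adjusted p = 3.96e-06), and MVD had 204 CPM untreated (0.70 ± 0.06, adjusted p = 2.09e-06). INSIG1 had 105 CPM untreated and was 0.66 ± 0.07 higher with BMP4 (edgeR, adjusted p = 7.78e-06), FASN had 1864 CPM and was 0.63 ± 0.05 higher (adjusted p = 8.91e-07), and LPIN1 had 15.0 CPM and differed by -1.11 ± 0.15 with BMP4 (adjusted p = 5.76e-05). SREBF1 and SREBF2 stood at 96.4 and 389 CPM untreated, with differences of -0.02 ± 0.05 and -0.02 ± 0.04 (edgeR, adjusted p = 0.753 and 0.795).
At 300 nM LDN the members were spread about the untreated level. The summed BMP target genes were not back at theirs, with 702 CPM at 300 nM and 186 CPM untreated. In 17 members the 300 nM library was above the untreated one and in 14 below it, with a median difference of 0.03 log2, whereas the library at 0 nM was above it in 23 members with a median of 0.30. At 300 nM SC5D stood at 170 CPM against 173 untreated, STARD4 at 67.3 against 70.6 and FDPS at 346 against 344, but MVK stood at 45.7 against 33.0, ACAT2 at 475 against 334 and FASN at 2639 against 1864 CPM. These are single libraries and were not tested against each other.

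Both experiments hold an early pair of conditions with no library in common, 4 h against 0 h and BMP4 against untreated at 5 h, from different extraction kits and library preparations. INSIG1 was 0.61 ± 0.33 higher in the first and 0.66 ± 0.07 in the second, MVK 0.63 ± 0.32 and 0.96 ± 0.09, and LPIN1 -1.16 ± 0.33 and -1.11 ± 0.15 (log2 ± SE). ACAT2 differed, with -0.14 ± 0.34 and 0.62 ± 0.05. The signs were the same in 21 of 31 members (67.7%) and in 65.3% of all genes, a share near the background.

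Set side by side, 14 members rose over 42 h and fell with LDN at 5 h: INSIG1, MVK, MVD, FDPS, FDFT1, LSS, TM7SF2, MSMO1, NSDHL, SC5D, DHCR7, STARD4, ACLY and ACSS2. Of the 12710 genes tested in both experiments, 3.60% did. Among these members MSMO1, ACLY and ACSS2 kept both calls under every alternative, and each of the others lost a call under some. Another 4, SREBF2, FASN, ELOVL6 and FADS2, passed the time trend and not the dose trend (27.1% of all genes), and 9 passed the dose trend alone (13.5%), ACAT2, HMGCS1, IDI1, CYP51A1, HSD17B7, EBP, ACACA, SCD and LPIN1. The other 4, SREBF1, PMVK, SQLE and FADS1, passed neither, as did 49.6% of all genes. A difference between the experiments was not tested, as they were prepared from RNA by different kits, with ribosomal RNA depletion in one and polyA selection in the other.

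Other genes of the pathways are given by their counts. Of 11 further genes of sterol synthesis and uptake, 3 rose and 0 fell over time, against 19.6% and 17.9% of all genes, and 6 fell and 0 rose with LDN, against 11.6% and 11.3% (edgeR's quasi-likelihood test). At 42 h NPC2 and NPC1, which export cholesterol from lysosomes, were 1.18 ± 0.32 and 1.05 ± 0.32 higher than at 0 h (edgeR, adjusted p = 0.000841 and 0.00352), and SCARB1, a lipoprotein receptor, had the largest change with LDN, -0.107 ± 0.014 per step (adjusted p = 0.00013). Among genes that retain or escort SREBPs, INSIG2, the paralog of INSIG1, had 10.6 CPM at 0 nM and 7.93 at 300 nM (-0.092 ± 0.031 per step, edgeR, adjusted p = 0.049), and SCAP 103 and 120 CPM (0.051 ± 0.014, adjusted p = 0.0191). Of 27 further fatty acid and glycerolipid genes 23 were tested over time, of which 7 rose (30.4%) and 2 fell (8.7%), and 23 with LDN, of which 2 rose (8.7%) and 5 fell (21.7%), against the same shares of all genes. At 42 h against 0 h ELOVL1, an elongase of very long chains, was 1.87 ± 0.30 higher (edgeR, adjusted p = 9.23e-09). ACSL1, which activates long-chain fatty acids, was 1.56 ± 0.30 higher (adjusted p = 2.15e-06, edgeR). ACACB, the mitochondrial acetyl-CoA carboxylase, went from 23.9 and 19.4 CPM at 0 h to 7.51 CPM at 42 h, a change of -1.53 ± 0.34 (edgeR, adjusted p = 3.96e-05). It missed the time trend (edgeR, adjusted p = 0.0787) and is not among the 2 that fell.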

How the data were processed

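Bulk RNA was sequenced in 13 libraries, 7 of a time series (ribosomal RNA depletion) and 6 of a dose response (polyA selection). After trimming, the authors aligned reads to GRCh38 (STAR 2.7.8a) and derived expected counts for each gene (RSEM 1.3.3). The Ensembl release and the use of strand are not given in the sources used here. The deposited counts are whole numbers, and the deposited FPKM values, which the authors normalized for length and depth, served for levels between genes and an alternative. The 5 features that are not human (0.0013% to 0.0030% of counts) were left out.

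Genes averaging 2.5 CPM or more were tested: 13658 in the time series and 13010 in the dose response, with all 31 members in both. edgeR 4.0.16 (quasi-likelihood test, TMM, two-sided, Benjamini-Hochberg adjustment over all genes tested, threshold 0.05) fitted a line in hours, each time against 0 h, a line over dose steps 0 to 4, and the untreated library against the dose line at 0 nM LDN. Later times and doses were unreplicated, and the error came from scatter around the line or from the 0 h pair. In the contrasts with 0 h the spread of that pair was shared across genes. SEs were taken from the test statistic. The time slope is the change over 42 h. Errors after ± are SEs.

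Values in every library were given by rule for SREBF1, SREBF2 and INSIG1, the 3 members with the largest rise and the 3 with the largest fall at 42 h and per dose step, and members called in both trends. The members and lists were chosen with earlier results of these data known. Alternatives were DESeq2 1.42.0 size factors, library totals, no filter or 10 CPM, the DESeq2 test, limma 3.58.1 on log2(FPKM + 0.1), and other time and dose scales (one used the study's SMAD4 values). Each library but the untreated one was also left out in turn. Without a 0 h library, single times were compared with 0 h but not tested. The tests were also run on simulated counts whose spread was set in advance and not taken from these libraries. That run cannot give their error rates here. Results of some genes of the SREBP processing list are not reported here. Promoter windows were taken from RefSeq (GRCh38.p14) and positions from GENCODE release 44, where all 31 genes were found by identifier. R 4.3.3, Python 3.11.15, pandas 2.3.3 and matplotlib 3.10.9 were used.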

Additional observations from a re-analysis of the deposited data

How the results depend on the processing

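No change that passed its test turned direction under an alternative, while differences near 0 that had not passed did so for some members, among them SCD at 42 h (0.05, and -0.16 on library totals). Members that rose over time numbered 18, with 8 on library totals and 11 by limma on FPKM, and 6 (without the 42 h library) to 17 when a library was left out, 11 without 0 h replicate 1. Of all genes, 19.6% rose in the main fit, 14.1% on library totals, 14.1% by limma and 12.6% to 22% with a library left out. Members that fell numbered 0, with 1 by limma on FPKM and 0 to 1 with a library left out (1 without 0 h replicate 2). Of all genes, 17.9% fell in the main fit, 23.5% by limma and 8.6% to 21.1% with a library left out. At 4 h the 1 lower member was 0 by the DESeq2 test and by limma (0.534% of all genes in the main fit, 0.366% and 0.322% in these). At 12 h the 2 higher members were 0 without a filter, 1 by the DESeq2 test and 0 by limma. The shares of all genes were 6.91% in the main fit and 3.4%, 4.87% and 5.04% in these. At 20 h the 1 higher member was 0 with DESeq2 size factors, on library totals, without a filter and by limma. The shares of all genes were 12.4% in the main fit and 11.9%, 11.5%, 6.35% and 9.59% in these. At 28 h the 6 higher members (13.3% of all genes) were 3 by limma (10.3%). At 42 h the 14 (19.8%) were 9 on library totals (15.4%) and 8 by limma (13.7%). Members that fell with LDN numbered 22, 14 by limma and 14 (without 300 nM) to 24 with a library left out. Of all genes, 11.6% fell in the main fit, 4.99% by limma and 8.25% to 11.2% with a library left out. Members lower with BMP4 than untreated numbered 1, with 3 with DESeq2 size factors, 2 without a filter, 2 by the DESeq2 test, 2 by limma, and 1 to 4 with a library left out (4 without 10 nM, 2 without 300 nM). Of all genes, 23.4% were lower in the main fit, 24.6% with DESeq2 size factors and 9.91% without a filter. The share was 19.4% by the DESeq2 test, 15.3% by limma and 21.8% to 23.6% with a library left out. The cause was not tested. Calls under every alternative numbered 5 of 18 for the time trend, 8 of 14 at 42 h, 12 of 23 for dose and 20 of 21 against untreated. The alternatives at 42 h hold no test without a 0 h library, and leaving out another later library left the 14 unchanged. The untreated library was never left out, so the 20 rest on it throughout. The SMAD4 scale and the other time scales kept the counts within 1.5 times.

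No paired analysis was possible because replicate numbers occur at 0 h only. Each later time and each dose was 1 library, so a value there cannot be told apart from its library.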

Other observations

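Genes of sterol efflux and storage and of fatty acid oxidation, which oppose or follow the synthesis described above, were measured in the same libraries. ABCA1, the cholesterol efflux pump, had 14.0 and 9.60 CPM at 0 h, then 20.8, 52.3, 94.5, 61.6 and 12.9 CPM at 4, 12, 20, 28 and 42 h. Its highest library was the one at 20 h. With LDN it went from 19.8 CPM at 0 nM to 8.86 CPM at 300 nM, -0.293 ± 0.035 per step (edgeR's quasi-likelihood test, adjusted p = 5.54e-05), against 8.10 CPM untreated. ABCG1, a related transporter, went the other way with LDN, from 2.28 to 3.62 CPM (0.172 ± 0.055, adjusted p = 0.0401). SOAT1, which esterifies cholesterol for storage, had 4.87 and 3.95 CPM at 0 h and 11.9 CPM at 42 h, 1.44 ± 0.33 higher (edgeR, adjusted p = 6.88e-05). Of the 14 genes of this list 9 were tested over time, of which 4 rose and 1 fell, against 19.6% and 17.9% of all genes. With LDN 8 were tested, of which 1 rose and 3 fell, against 11.3% and 11.6%.

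Of 22 fatty acid oxidation genes tested over time 9 rose and 2 fell, against 19.6% and 17.9% of all genes. Of 20 tested with LDN 2 rose and 2 fell, shares near those of all genes (11.3% and 11.6%). The 9 include ACADL and PPARGC1A, which passed the filter on low levels only through the later libraries, where they were high. The filter thus favoured a rise in them, so the 9 cannot be weighed against the 19.6%. Their values are given without a test. ACADL, a long-chain acyl-CoA dehydrogenase, had 0.154 and 0.166 CPM at 0 h, 20.1 CPM at 20 h, 41.6 CPM at 28 h and 41.0 CPM at 42 h. CPT1A, which admits long-chain fatty acids to mitochondria, had 5.56 and 7.59 CPM at 0 h and 0.777 CPM at 42 h, a change of -3.08 ± 0.46 (edgeR's quasi-likelihood test, adjusted p = 2.07e-10). PPARGC1A, a coactivator of mitochondrial genes, had 1.98 and 1.48 CPM at 0 h and 21.2 CPM at 42 h.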
